A study of Mus musculus with 17 samples.

Results

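The Wnt signalling genes described here are 37 members that carry the signal from the Frizzled receptors at the cell surface to the Tcf and Lef factors in the nucleus, together with inhibitors, feedback regulators and Porcn. They were taken as a list of named genes, with no threshold on a measured value, and the list was drawn up with earlier results of these data known. They are 37 of the 20228 genes measured on 17 exon arrays of 32D, an immortalised mouse cell line described as myeloblast-like. Of the members, 11 encode receptors, 10 cytoplasmic machinery, 9 nuclear factors, and 7 inhibitors, feedback regulators or the Wnt-modifying enzyme.

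The arrays form 5 groups that share the 32D background: 2 of parental cells, 2 of cells transduced with the empty retroviral vector pLXRN, 2 of cells with wild-type human FLT3, 2 of cells with wild-type human FLT3 and FLT3 ligand (FL), and 9 whose human FLT3 carries an ITD, an internal tandem duplication. FLT3 is a receptor tyrosine kinase of blood progenitors, and the duplication is an activating mutation of acute myeloid leukaemia. Each ITD array is a different mutant, numbered here as lines 1 to 9. Per the growth protocol, the parental, vector and wild-type cells had mouse IL-3 at 1 ng/mL, whereas the ITD lines grew without it, so the mutant receptor and the absence of IL-3 cannot be told apart. The ligand cultures were split from the wild-type line and received FL at 20 ng/mL. Whether IL-3 stayed in them is not said outright, and their sample label can also be read as a transduction with the ligand. Selection with G418 is stated for the vector and wild-type lines only. The transduced lines were polyclonal populations, and each receptor was expressed from a retroviral construct in mouse cells. The labels call the paired control arrays biological replicates without saying whether the cultures were separately made, so the spread within a pair may be technical. The p-values of the group contrasts rest on a spread pooled over all 5 groups. Of its 12 residual degrees of freedom, 8 come from differences between the ITD lines.

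In the canonical pathway, a Wnt ligand binds a Frizzled receptor and the co-receptor Lrp5 or Lrp6, and Dishevelled proteins pass the signal on. Without a ligand, a complex of Axin, Apc, casein kinase 1 and Gsk3 marks beta-catenin for degradation; with a ligand, beta-catenin accumulates and joins Tcf and Lef factors on their target genes. The pathway is known in blood for its part in the self-renewal of stem cells and of leukaemic progenitors. Much of its control acts on proteins, and the arrays read RNA only.

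A gene value is the mean log2 signal of the probe sets used for that gene, and differences are on the same log2 scale, each with its standard error (SE). Flt3 separated the labels: its value lay between 5.12 and 5.37 on the 4 parental and vector arrays and between 6.73 and 7.32 on the 13 arrays with an introduced receptor, although the probe sets were designed for the mouse gene. Across genes, which are not independent replicates, the median correlation of arrays was 0.984 for a control pair, 0.977 for ITD lines among themselves and 0.965 for arrays of different control groups. The mean of the 10 measured myeloblast markers lay between 9.64 and 10.48 over the 17 arrays, although Kit and Cd34, markers of early progenitors, were low, with group means between 5.44 and 5.75. The mean of the T lymphoid markers lay between 5.46 and 5.91, and that of the stromal markers between 5.69 and 6.07. The erythroid factors Klf1 and Gata1, the only 2 of 5 erythroid markers measured, differed between groups: their mean was 8.66 to 8.78 on parental arrays, 7.22 to 7.49 with the vector, 5.66 to 5.90 with wild-type FLT3, 6.14 to 6.31 with ligand, and 6.93 to 8.63 on the ITD arrays. In these bulk samples, fewer cells of a type and less RNA per cell cannot be told apart.

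All 37 members had at least 1 probe set above the level filter, and 561 of their 692 probe sets passed it. A member counted as near background when under 0.5 of its probe sets passed, or when no group mean was above 5.599. By that rule 8 members were near background: the receptor genes Fzd1, Fzd3, Fzd6, Fzd7, Fzd8 and Fzd9, the Tcf-family gene Lef1, and Sfrp1, a secreted Frizzled-related inhibitor. Fzd1 rests on 2 of its 5 probe sets, Fzd3 on 3 of 16, Fzd8 on 4 of 13, Lef1 on 14 of 29 and Sfrp1 on 2 of 5. Fzd9 has a single probe set, and its group means ran from 4.44 to 4.93. A second yardstick was set after the values were seen: 20 markers of T lymphoid, fibroblast and epithelial cells had group means up to 7.15. This top value came from a single marker, Cd3d, in parental cells. The next highest marker, Krt8, reached 6.96 with the vector, and the median of the markers' highest group means was 6.17. Of the 37 members, 19 had no group mean above 7.15. Znrf3, Tcf7l1 and Rnf43 are among these 19, so for them only differences between groups are read, not a level. Axin2, Tcf7l2, Tle3, Dkk1, Fzd5, Ctnnbip1, Wif1, Nkd1 and Porcn are also among the 19, although the first rule did not count them as near background. Fzd1 is near background by that rule but had a group mean of 7.41 with the vector.

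The members above that yardstick included genes of receptors, of beta-catenin and of its degradation complex. Of the Tcf and Lef genes only Tcf7 exceeded it, with 7.18 in the vector group and 6.57 to 7.15 in the others. Tcf7l1, Tcf7l2 and Lef1 stayed below it, with group means up to 6.74, 5.91 and 6.37. Among the receptors, group means ran from 8.09 to 9.58 for Fzd4, from 8.16 to 8.27 for Lrp5 and from 7.75 to 8.02 for Lrp6. In the cytoplasm they ran from 10.56 to 10.93 for Ctnnb1, the gene of beta-catenin, from 9.86 to 10.14 for Csnk1a1, the gene of casein kinase 1 alpha, and from 9.12 to 9.48 for the kinase gene Gsk3b. Of the nuclear factors, the corepressor gene Tle1 ran from 7.76 to 8.01, and Bcl9 and Pygo2, whose proteins bridge beta-catenin to transcription, from 7.75 to 8.12 and from 7.74 to 8.07. Below it, Nkd1, a feedback inhibitor that binds Dishevelled, ran from 6.86 to 7.10, and Porcn, which attaches the lipid that Wnt ligands need for secretion, from 6.15 to 6.48.

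**Figure D1:**
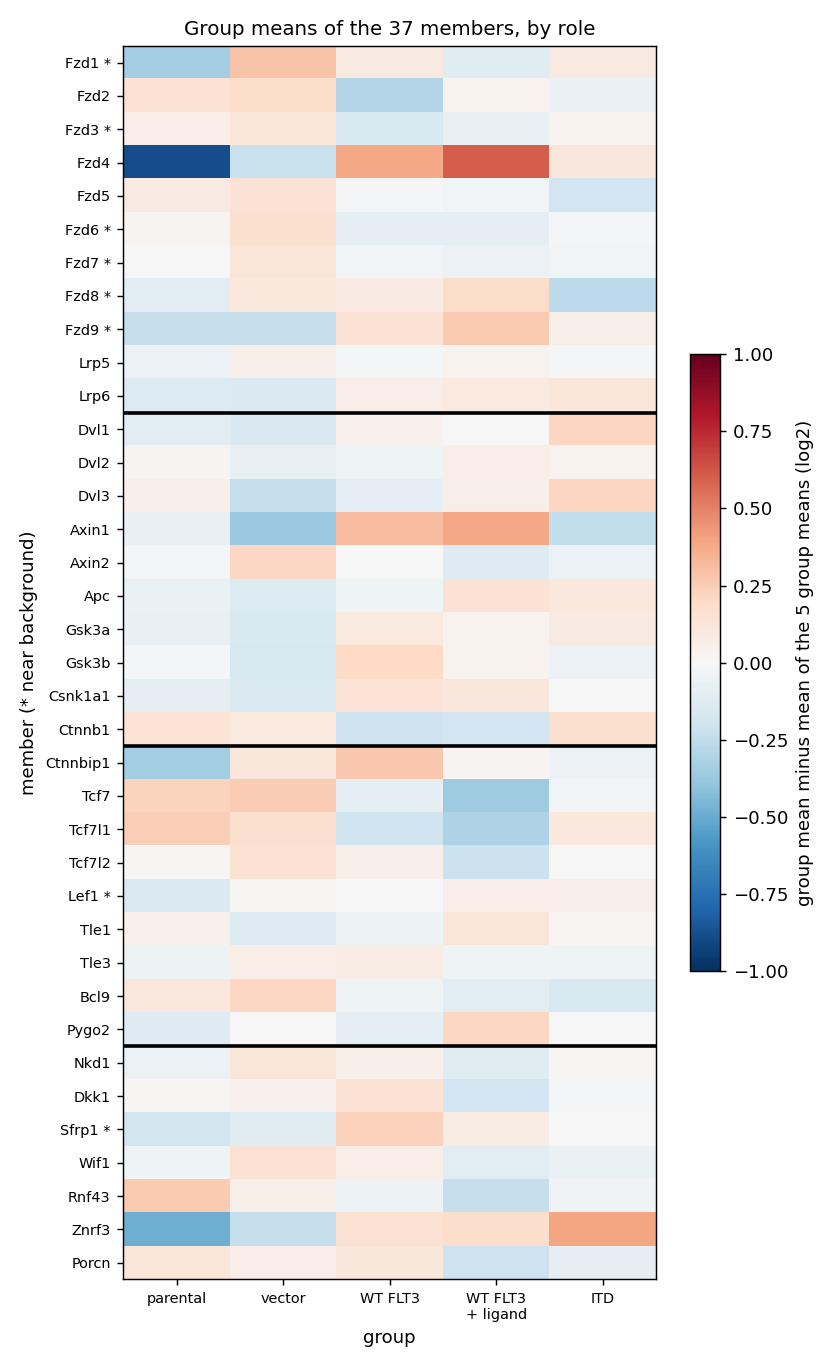
Group means of the 37 members as the difference from the mean of the 5 group means of the same gene (log2, colour scale from -1 to 1), in order of role, with columns for the 5 groups (n = 2, 2, 2, 2 and 9 arrays). Fzd4, Axin1 and Znrf3 carry the strongest colours, and 30 of 37 members have group means within 0.5 of each other.

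To show the promoters of members that were called in different contrasts, the 250 bases before the RefSeq start (build GRCm38.p6) are printed for Fzd4 (chr7:89404116-89404365, plus strand), Tcf7l1 (chr6:72789046-72789295, minus strand) and Dvl1 (chr4:155847152-155847401, plus strand), each 5′ to 3′ on the strand of its gene.
Fzd4: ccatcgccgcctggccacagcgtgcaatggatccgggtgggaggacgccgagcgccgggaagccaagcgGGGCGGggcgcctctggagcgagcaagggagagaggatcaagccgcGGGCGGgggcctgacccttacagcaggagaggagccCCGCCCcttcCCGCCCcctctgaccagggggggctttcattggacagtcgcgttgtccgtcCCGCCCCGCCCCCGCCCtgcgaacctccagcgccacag
Tcf7l1: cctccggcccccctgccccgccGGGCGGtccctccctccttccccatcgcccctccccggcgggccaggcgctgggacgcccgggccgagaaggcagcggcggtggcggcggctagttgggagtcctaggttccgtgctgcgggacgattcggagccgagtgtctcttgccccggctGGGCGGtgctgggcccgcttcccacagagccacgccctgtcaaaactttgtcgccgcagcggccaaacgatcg
Dvl1: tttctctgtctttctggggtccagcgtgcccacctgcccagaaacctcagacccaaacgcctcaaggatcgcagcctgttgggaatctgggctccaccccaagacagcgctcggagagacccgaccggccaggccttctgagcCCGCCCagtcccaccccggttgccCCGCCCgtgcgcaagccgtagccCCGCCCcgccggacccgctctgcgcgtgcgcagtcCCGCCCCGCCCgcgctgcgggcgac
Capitals mark GGGCGG, the core of a GC box, or its reverse complement CCGCCC, with overlapping matches counted, and there are 7 in Fzd4, 2 in Tcf7l1 and 5 in Dvl1. The G and C share is 72.8% in Fzd4, 73.6% in Tcf7l1 and 71.2% in Dvl1, against a median of 52.4% over all windows. The promoter table held windows for 25 of the 37 members, 35 windows in all, and 24 of the 35 hold the GC box core, against 32.7% of all 32851 windows. The Tcf and Lef motif CTTTGAT, searched on both strands, was found in 0 of the 35 and in 3.21% of all windows, and the STAT motif TTCNNNGAA in 0 of the 35 and in 7.02%. None of the motifs contains another, and a match or its lack in these windows describes the sequence only. The 12 members without a window include Znrf3 and Axin1.

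Setting the ITD lines against the 3 groups kept on IL-3 (the mean of vector, wild-type and parental cells) asks how mutant lines that grow without the cytokine differ. Znrf3, the gene of a ubiquitin ligase that removes Frizzled from the surface, rose 1.5-fold. Dvl1 and Dvl3, which encode Dishevelled proteins, rose 1.22-fold and 1.23-fold, and Bcl9 fell to 0.839 of the control level. At an adjusted p under 0.05, 4 of 37 members (10.8%) were called, 3 higher and 1 lower, beside 19.4% of all genes (11.2% higher and 8.15% lower). The median difference was -0.01 for the members and -0.01 for all genes. None of the 11 receptor genes was called. An unadjusted p under 0.05 was found for 3 of them, and for 6392 of all 20228 genes. Calls were made for 2 of 10 cytoplasmic genes, 1 of 9 nuclear factors and 1 of 7 inhibitors and feedback genes.

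Znrf3 measured 6.27 and 6.23 on the parental arrays, 6.53 and 6.48 with the vector, 6.95 and 6.83 with wild-type FLT3, and 6.93 and 6.88 with ligand. The 9 ITD arrays ran from 6.96 over a median of 7.19 to 7.26. Every ITD array was above every array of the other groups, by the narrowest margin over wild-type FLT3, and the parental arrays were lowest. Znrf3 was the only member whose 9 ITD arrays all lay outside the 6 parental, vector and wild-type arrays, above them, as 0.974% of all genes were, while 1.39% were below. The difference was 0.59 ± 0.06 against the 3 control groups (adjusted p 7.46e-06), 0.88 ± 0.09 against parental cells (adjusted p 5.89e-06) and 0.63 ± 0.09 against the vector (adjusted p 0.000257). Against wild-type FLT3 it was 0.25 ± 0.09 and was not called (adjusted p 0.116). Of its 17 probe sets 15 were higher in ITD than in the 3 control groups, and 11 were called higher and none lower when single probe sets were tested, where 19.9% of all probe sets were called. The largest difference of a probe set was 1.72 ± 0.34.

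Dvl1 measured 7.83 and 7.85 on the parental arrays, 7.81 and 7.78 with the vector, 8.02 and 7.96 with wild-type FLT3, 7.96 and 7.92 with ligand, and 7.90, 8.18 and 8.33 as the lowest, median and highest of the ITD arrays. Lines 5 and 9 lay above the parental and vector arrays and below the wild-type arrays, and the other 7 lines were above all control arrays. The difference was 0.28 ± 0.07 (adjusted p 0.0105). Of 29 probe sets 10 were called higher and none lower, beside 19.9% of all probe sets called. The call was lost when the vector group was left out (0.24, adjusted p 0.0845) or the parental group was (0.27, adjusted p 0.0521), and with the median in place of the mean of the probe sets (0.25, adjusted p 0.0748).

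Dvl3 measured 7.25 and 7.36 on the parental arrays, 7.09 and 6.94 with the vector, 7.21 and 7.12 with wild-type FLT3, 7.40 and 7.22 with ligand, and 7.07, 7.52 and 7.75 as the lowest, median and highest of the ITD arrays. The ITD arrays overlapped the controls, and line 9 was the lowest of them. The difference of 0.30 ± 0.09 (adjusted p 0.0282) ended as a call without parental array 1 (adjusted p 0.0743), parental array 2 (0.0508), vector array 2 (0.0870) or wild-type array 2 (0.0818), and without the vector group (0.23, adjusted p 0.196) or the wild-type group (0.056). Dvl2, the remaining Dishevelled gene, averaged between 7.62 and 7.76 over the groups and was not called in any contrast.

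Bcl9 measured 8.06 and 7.97 on the parental arrays, 8.04 and 8.19 with the vector, 7.95 and 7.79 with wild-type FLT3, 7.74 and 7.86 with ligand, and 7.61, 7.78 and 7.89 as the lowest, median and highest of the ITD arrays. The ITD arrays lay below the parental and vector arrays and overlapped those with wild-type FLT3, with lines 4, 5 and 7 below all 4 of these. The difference was -0.25 ± 0.06 (adjusted p 0.00967). Of 27 probe sets 6 were called lower and none higher, beside 19.9% of all probe sets called. When the vector group was left out it was -0.20 (adjusted p 0.108), and with the median of the probe sets it was -0.27 (adjusted p 0.0646).

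The count of 4 rose to 7 without ITD line 7 or without ITD line 9. Lrp6, the co-receptor gene, and Porcn joined it in both cases, with Fzd5 in the first and Apc, a part of the degradation complex, in the second. With all lines, Lrp6 differed by 0.19 ± 0.07 (adjusted p 0.0567) and Porcn by -0.19 ± 0.07 (adjusted p 0.0557). The share of all genes called without line 7 or line 9 is not given here. The rise to 7 is therefore not read as particular to the members. When each of the 12 lines was 1 unit, so that the differences between the control lines entered the spread, Znrf3 alone was called (adjusted p 0.0207), as against 466 genes in all.

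**Figure D2:**
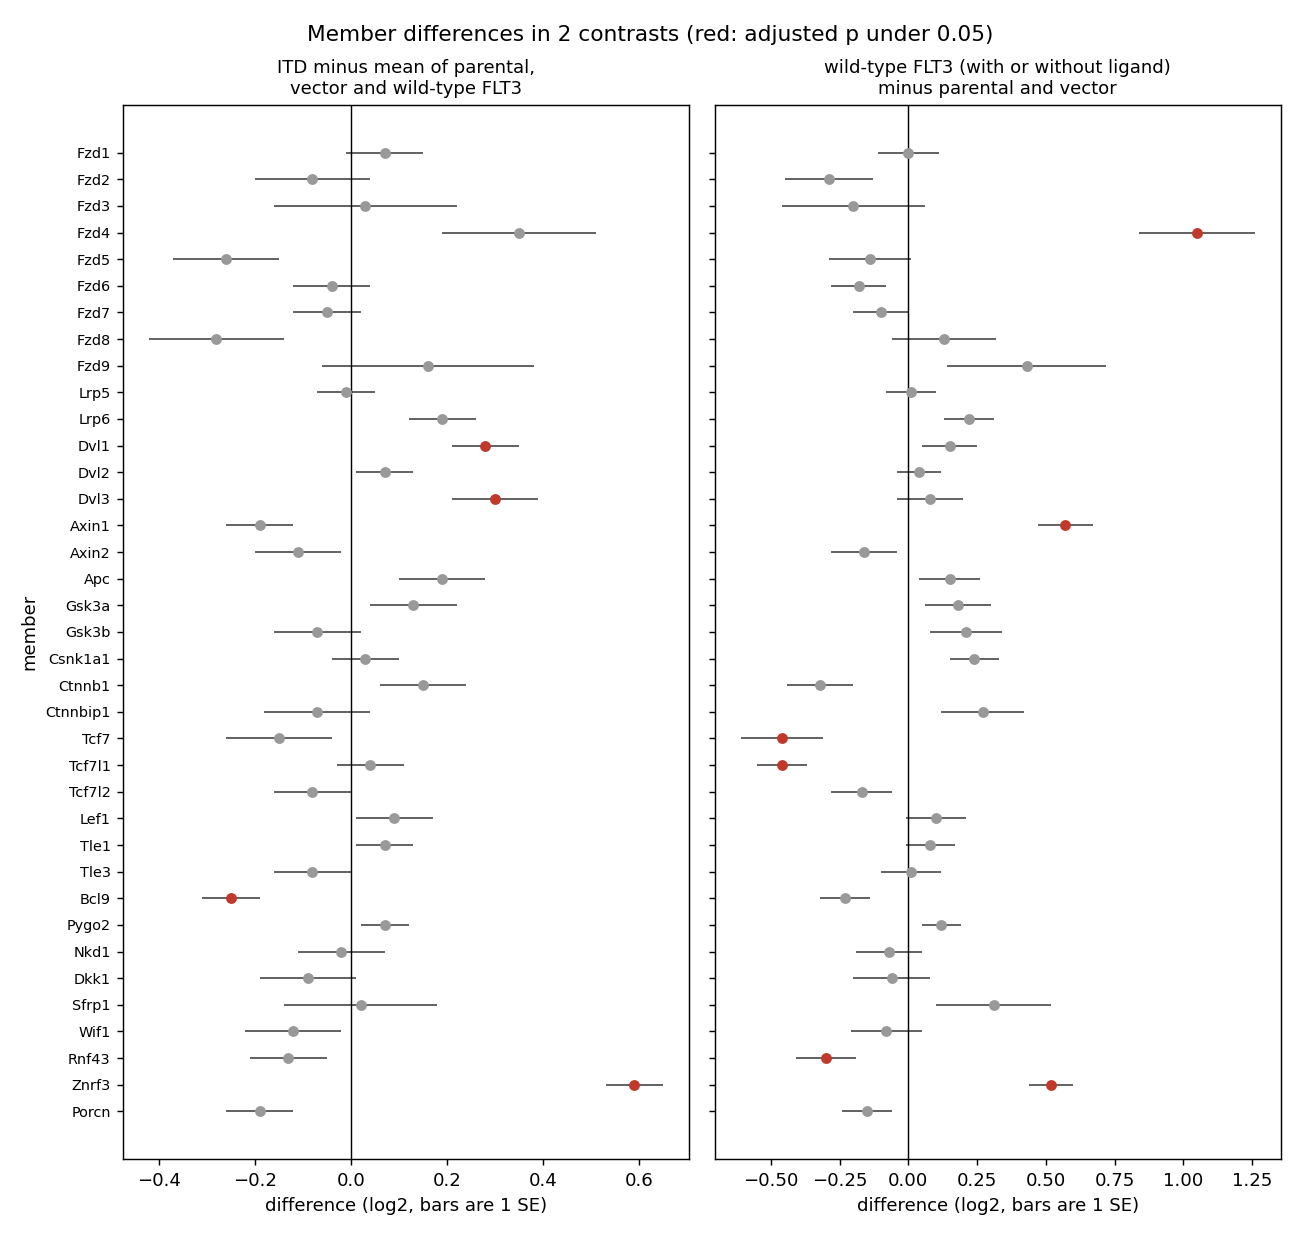
Log2 differences of the 37 members, with bars of 1 SE, for ITD minus the 3 control groups (left) and for wild-type FLT3 with or without ligand minus parental and vector cells (right), and red points at an adjusted p under 0.05. Members called on the left are Dvl1, Dvl3, Bcl9 and Znrf3, and those on the right are Fzd4, Axin1, Tcf7, Tcf7l1, Rnf43 and Znrf3.

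Taken against parental cells alone, 3 members were higher in the ITD lines and none lower: Znrf3, Fzd4 and Fzd1 (8.11% of the members, beside 17% of all genes, 10.3% higher and 6.72% lower). Against the vector the 4 members called were Znrf3, Dvl1, Dvl3 and Bcl9 (10.8%, beside 14% of all genes, 8.82% higher and 5.21% lower). The ITD arrays are shared by these contrasts, so the values are given side by side. Dvl1 differed by 0.36 ± 0.11 from the vector (adjusted p 0.0297), Dvl3 by 0.45 ± 0.14 (adjusted p 0.0363) and Bcl9 by -0.37 ± 0.09 (adjusted p 0.0141). All 3 calls against the vector were lost without vector array 1 (adjusted p 0.173, 0.137 and 0.0694) and without vector array 2 (0.237, 0.321 and 0.248); that of Dvl3 was also lost without ITD line 1 (0.0535), 2 (0.0527) or 3 (0.0510).

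Fzd4, a Frizzled receptor gene, measured 8.30 and 7.88 on the parental arrays, 8.78 and 8.72 with the vector, 9.43 and 9.29 with wild-type FLT3, and 9.54 and 9.62 with ligand. The ITD arrays ran from 8.60 over a median of 9.01 to 9.79. The parental arrays were lowest, the vector arrays next, and the arrays with ligand above those with wild-type FLT3 alone; ITD lines 4 and 5 were above all other arrays and line 2 below the vector arrays. ITD exceeded parental cells 2.00-fold (1.00 ± 0.23, adjusted p 0.00626). Without parental array 2 the difference was 0.79 (adjusted p 0.169). The difference of 0.34 ± 0.23 from the vector was not called (adjusted p 0.369). All 10 probe sets were higher in ITD than in parental cells, and 9 were called, beside 16.3% of all probe sets.

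Fzd1, which is near background, measured 6.86 and 6.71 on the parental arrays, 7.40 and 7.43 with the vector, 7.14 and 7.27 with wild-type FLT3, 6.84 and 7.16 with ligand, and 6.99, 7.25 and 7.45 as the lowest, median and highest of the ITD arrays. The parental arrays were below all ITD arrays and below the vector arrays. The difference from parental cells was 0.43 ± 0.12 for ITD (adjusted p 0.0226) and 0.63 ± 0.16 for the vector (adjusted p 0.0448). The second was the only call among the members between vector and parental cells (2.70%, beside 2.23% of all genes, 1.27% higher and 0.959% lower). The ITD call was lost without either parental array (adjusted p 0.0820 and 0.273). The vector call was lost without either parental array (0.132 and 0.278), either vector array (0.211 and 0.244), either wild-type array (0.0598 for each) or ITD line 1 (0.0589) or 5 (0.0530). With all 5 probe sets in place of 2, the ITD difference was -0.01 (adjusted p 0.975), and neither of the 2 probe sets was called by itself.

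**Figure D3:**
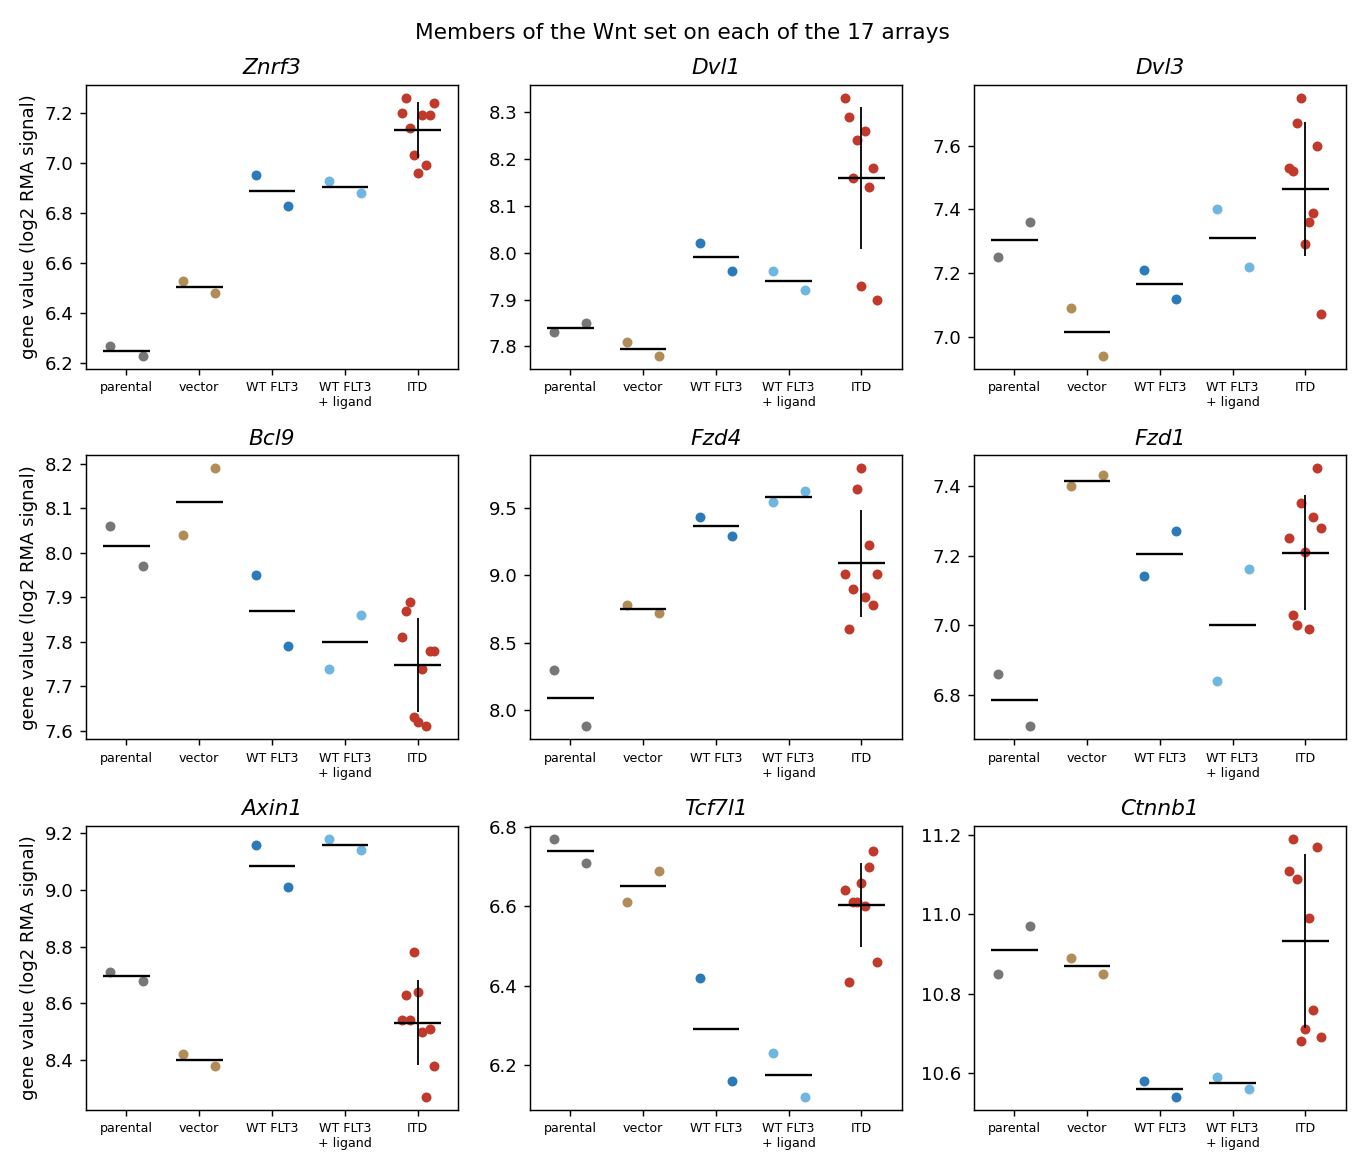
Gene values (log2 RMA signal, 1 panel a gene with its own axis) on each of the 17 arrays for the 8 members called in a planned contrast and for Ctnnb1; points are arrays, black bars group means, and the vertical line on the ITD group is 1 SD (n = 9). The 4 arrays with wild-type FLT3 lie above all others for Axin1 (9.01 to 9.18) and below all others for Ctnnb1 (10.54 to 10.59).

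The comparison of ITD with wild-type FLT3 asks what the duplication and growth without IL-3 add to the receptor. Axin1, the scaffold of the degradation complex, was the only member called against wild-type FLT3 (2.70%, beside 7.71% of all genes, 3.27% higher and 4.44% lower), and it fell to 0.683 of that level. Against wild-type FLT3 with ligand, Axin1 fell to 0.648 and Tcf7l1, the gene of the Tcf factor best known as a repressor, rose 1.34-fold (5.41%, beside 5.8% of all genes, 1.72% higher and 4.08% lower). Wild-type FLT3 in turn exceeded the vector in Axin1 alone (2.70%, beside 8.21% of all genes, 5.5% higher and 2.71% lower), 1.60-fold.

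Axin1 measured 8.71 and 8.68 on the parental arrays, 8.42 and 8.38 with the vector, 9.16 and 9.01 with wild-type FLT3, and 9.18 and 9.14 with ligand. The ITD arrays ran from 8.27 over a median of 8.54 to 8.78. The 4 arrays with wild-type FLT3 were above all 13 others, and the ITD lines were spread over the range of the parental and vector arrays and slightly beyond it. The difference of ITD was -0.55 ± 0.11 from wild-type FLT3 (adjusted p 0.00437) and -0.63 ± 0.11 from wild-type FLT3 with ligand (adjusted p 0.00180). Wild-type FLT3 exceeded the vector by 0.68 ± 0.14 (adjusted p 0.00520). Without wild-type array 1 the first was -0.48 (adjusted p 0.130) and the third 0.61 (adjusted p 0.0793), without ligand array 1 the second was -0.61 (adjusted p 0.0611), and without vector array 2 the third was 0.66 (adjusted p 0.0583). With the median of the probe sets the third was 0.54 (adjusted p 0.0904). Without ITD line 4, 5, 7 or 9, Znrf3 joined Axin1 in the third, for a count of 2 members. Axin2, a feedback gene that beta-catenin is known to induce, averaged between 5.65 and 5.98 over the groups and was not called in any contrast. It rests on 8 of its 16 probe sets and had no group mean above the marker yardstick of 7.15. The lack of a call is therefore not read as a statement on beta-catenin activity.

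Tcf7l1 measured 6.77 and 6.71 on the parental arrays, 6.61 and 6.69 with the vector, 6.42 and 6.16 with wild-type FLT3, 6.23 and 6.12 with ligand, and 6.41, 6.61 and 6.74 as the lowest, median and highest of the ITD arrays. The arrays with wild-type FLT3 were the lowest, except that the lowest ITD array was just under the highest of them. The difference of ITD from wild-type FLT3 with ligand was 0.43 ± 0.10 (adjusted p 0.0151), and it lost its call without either ligand array (adjusted p 0.113 and 0.263). From wild-type FLT3 alone it was 0.31 ± 0.10 (adjusted p 0.0611), and it was called there without ITD line 2 or 9, for a count of 2 members. The annotation of the arrays listed these probe sets under Tcf3, an older symbol of Tcf7l1, and listed the gene now called Tcf3 separately.

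The arrays with and without ligand were close for the members: none was called, with differences from -0.33 to 0.33 and a smallest adjusted p of 0.520, and 0% of all genes were called by limma (1555 of them had an unadjusted p under 0.05). At an unadjusted p under 0.05 there were 2 members, Pygo2 at 0.29 ± 0.10 and Porcn at -0.33 ± 0.13. A pair against a pair has little power, and these values do not show that the groups are alike.

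Because the wild-type groups stood together in several members, a pair of contrasts was added after the values were seen. The values that prompted these contrasts are tested again in them. Their p-values therefore tend to be too small and serve as description only. Tcf7, Rnf43 and Ctnnb1 were called in no planned contrast. In the first, the 4 arrays with wild-type FLT3 were set against the 4 parental and vector arrays, which all carry no introduced receptor. Fzd4 rose 2.07-fold, Axin1 1.49-fold and Znrf3 1.43-fold, while Tcf7l1 fell to 0.726, Tcf7, which encodes a Tcf factor of T lymphocytes, to 0.725 and Rnf43, the ubiquitin ligase gene closest to Znrf3, to 0.811. These 6 were 16.2% of the members, beside 21.6% of all genes (15% higher and 6.66% lower). The ligand cultures were split from the wild-type line, so the receptor and other properties of that line cannot be told apart. Klf1 and Gata1 were lowest on the same 4 arrays, and their part in these differences was not tested.

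Fzd4 differed by 1.05 ± 0.21 (adjusted p 0.00163), Axin1 by 0.57 ± 0.10 (adjusted p 0.000377), Znrf3 by 0.52 ± 0.08 (adjusted p 0.000243) and Tcf7l1 by -0.46 ± 0.09 (adjusted p 0.00113). These 4 calls held without any single array, but with the median of the probe sets Tcf7l1 differed by -0.29 (adjusted p 0.208). Tcf7 measured 7.17 and 7.12 on the parental arrays and 7.13 and 7.23 with the vector. It measured 6.97 and 6.68 with wild-type FLT3 and 6.49 and 6.66 with ligand. On the ITD arrays it had a lowest value of 6.57, a median of 6.94 and a highest of 7.44. Its difference of -0.46 ± 0.15 (adjusted p 0.0330) ended as a call without any 1 of 7 of the 8 arrays compared, the exception being wild-type array 1, with adjusted p between 0.0546 and 0.130, and also with a stricter filter on dim probe sets (0.0784) and with the median of the probe sets (0.116). That of Rnf43, -0.30 ± 0.11 (adjusted p 0.0499), was lost without most single arrays, 14 of 17, with adjusted p up to 0.221. It was also lost with no filter on dim probe sets (-0.22, adjusted p 0.142), a stricter one (-0.22, adjusted p 0.314), the replicate block (adjusted p 0.0580) and the median of the probe sets (-0.14, adjusted p 0.636).

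For the second added contrast, the 9 ITD arrays were set against the same 4 wild-type arrays, so it shares them with the first. Axin1 differed by -0.59 ± 0.08 (adjusted p 0.000141), and 10 of its 13 probe sets were called lower, beside 10.7% of all probe sets called. Ctnnb1 rose 1.29-fold (0.36 ± 0.10, adjusted p 0.0240), with 10 of 20 probe sets called higher. Tcf7l1 differed by 0.37 ± 0.08 (adjusted p 0.00360) and Znrf3 by 0.24 ± 0.07 (adjusted p 0.0342); neither was called with the median of the probe sets (adjusted p 0.0769 and 0.610). The 4 calls were 10.8% of the members, beside 13.1% of all genes (4.83% higher and 8.24% lower). The call of Ctnnb1 was lost without wild-type array 1 (adjusted p 0.0761) or 2 (0.0939) or ligand array 1 (0.0777) or 2 (0.0918), and that of Znrf3 without any of these (between 0.0652 and 0.160) or without ITD line 1 (0.0583), 2 (0.0581), 6 (0.0590) or 8 (0.0519).

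Ctnnb1 measured 10.85 and 10.97 on the parental arrays, 10.89 and 10.85 with the vector, 10.58 and 10.54 with wild-type FLT3, and 10.59 and 10.56 with ligand. The ITD arrays ran from 10.68 over a median of 10.99 to 11.19. The 4 arrays with wild-type FLT3 were below all 13 others, while the ITD arrays surrounded the parental and vector values. Axin1 and Ctnnb1 were the only 2 members for which the 4 wild-type arrays lay outside all 13 others, 1 above, as for 2.68% of all genes, and 1 below, as for 1.3%. The differences of Ctnnb1 from wild-type FLT3 alone (0.37 ± 0.13, adjusted p 0.0951) and from wild-type FLT3 with ligand (0.35 ± 0.13, adjusted p 0.137) were not called.

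**Figure D4:**
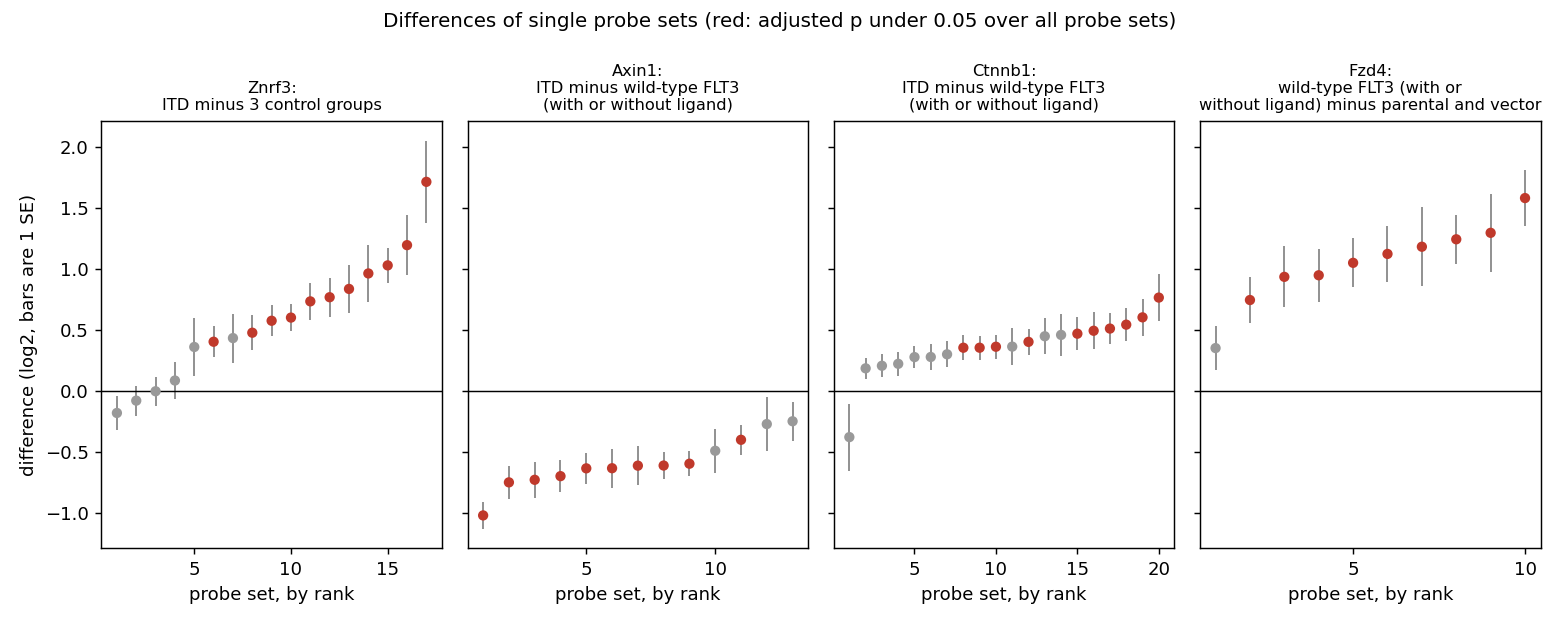
Log2 differences of the single probe sets of Znrf3, Axin1, Ctnnb1 and Fzd4, each with a bar of 1 SE and ranked within its gene, for the contrast named above the panel, with red points at an adjusted p under 0.05 over all probe sets. For Znrf3 11 of 17 were called higher, for Axin1 10 of 13 lower and for Ctnnb1 10 of 20 higher, and for Fzd4 9 of 10 higher.

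Tested one by one, 52 of the 561 member probe sets were called higher and 22 lower in ITD against the 3 control groups. That was 13.2%, beside 19.9% of all probe sets. Probe sets of a gene share their transcript and arrays and are not independent. Against wild-type FLT3 alone, 8 were called higher and 12 lower (3.57%, beside 6.27%). In Fzd4 all 10 probe sets were higher with wild-type FLT3 than in parental and vector cells, and 9 were called, with differences from 0.36 to 1.58, beside 18% of all probe sets called. In Tcf7l1 13 of 15 were lower in the same contrast, with 4 called.

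The spread among the 9 ITD lines was tested against that within the 4 control pairs. No member was called by this F ratio, beside 2.55% of all genes, and the smallest adjusted p among the members was 0.0651, for Dvl1. The 516 genes called in all became 0 to 5 without any 1 of the 8 control arrays, 226 without line 4 and 157 without line 7. At an unadjusted p under 0.05 there were 7 members, Fzd4, Lrp5, Dvl1, Axin1, Csnk1a1, Ctnnb1 and Ctnnbip1 (18.9%, beside 24.3% of all genes). The range over the ITD lines had a median of 0.48 over the members and was 1.19 for Fzd4. Ctnnb1 was between 10.99 and 11.19 on lines 1, 2, 3, 6 and 8 and between 10.68 and 10.76 on lines 4, 5, 7 and 9. Csnk1a1 was highest on lines 4 and 5, at 10.23 and 10.17, as was Fzd4. Ctnnbip1, an inhibitor that keeps beta-catenin from Tcf factors, ran from 5.46 on line 9 to 6.29 on line 7. Each mutant had 1 array, so no line was tested by itself.

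The remaining members were not called in any contrast. Among the receptors, the group means of Fzd2 ran from 6.98 to 7.46, of Fzd5 from 6.23 to 6.56, of Fzd6 from 6.41 to 6.66, of Fzd7 from 6.04 to 6.22 and of Fzd8 from 5.71 to 6.15. Those of Fzd3 ran from 4.99 to 5.26. In the degradation complex, Apc ran from 7.53 to 7.81 and Gsk3a from 8.94 to 9.19. Of the nuclear factors, Tcf7l2 ran from 5.54 to 5.91, Lef1 from 6.16 to 6.37, the corepressor gene Tle3 from 5.77 to 5.90 and Ctnnbip1 from 5.65 to 6.27. The secreted inhibitors Dkk1, Wif1 and Sfrp1 ran from 5.28 to 5.61, from 6.01 to 6.27 and from 5.24 to 5.65. For each of these the range of the 5 group means was smaller than the range over the 9 ITD arrays. Means vary less than single arrays, so this comparison cannot show that the groups are alike. For Pygo2 and Porcn, also not called, the range of the group means was the larger, 0.33 against 0.16 and 0.33 against 0.22.

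Of 154 other measured Wnt pathway genes, 13 rose and 10 fell in ITD against the 3 control groups, 14.9% beside 19.4% of all genes. Among ligands and their handling, Wls, which escorts Wnt ligands to the surface, fell by 0.45 ± 0.12 (adjusted p 0.0109), and Wnt1 and Wnt6, both low, fell by 0.37 ± 0.12 and 0.36 ± 0.11. Of 25 other cytoplasmic genes 3 rose and 3 fell: Siah1b, a ubiquitin ligase gene, rose by 0.39 ± 0.08 and the casein kinase genes Csnk1g1 and Csnk2a1 by 0.37 ± 0.12 and 0.25 ± 0.07. Frat1 and Frat2, whose proteins bind Gsk3, fell by 0.35 ± 0.07 and 0.31 ± 0.07, and the casein kinase gene Csnk1e by 0.24 ± 0.05. Of 23 other nuclear factors 7 rose and 1 fell: the histone deacetylase gene Hdac2 rose by 0.51 ± 0.07 and the ATPase genes Ruvbl2 and Ruvbl1 by 0.42 ± 0.06 and 0.32 ± 0.07, Tbl1x and Cdc73 rose by 0.23 ± 0.06 and 0.23 ± 0.08, whereas the Tle-family gene Tle6 fell by 0.29 ± 0.08. Of 24 genes of the planar polarity and calcium arm, Camk2g rose by 0.18 ± 0.06 and Cdc42 fell by 0.14 ± 0.04.

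Of 25 textbook targets of the pathway 2 rose and 2 fell in ITD against the same 3 control groups, 16.0% beside 19.4% of all genes, so the list was called no more often than genes in general. Myc, a transcription factor of growth, rose by 0.61 ± 0.07 (adjusted p 2.64e-05) and Birc5, an inhibitor of apoptosis, by 0.39 ± 0.12. Id2, a regulator of differentiation, fell by 1.27 ± 0.15 (adjusted p 2.66e-05) and Plaur, the urokinase receptor, by 0.97 ± 0.18. Against wild-type FLT3 alone, 11 of the 154 were called (7.14%, beside 7.71% of all genes). Prkca, Jup, Runx1, Myc and Cd44 rose by 1.00 ± 0.16, 0.92 ± 0.19, 0.84 ± 0.21, 0.55 ± 0.11 and 0.54 ± 0.15, and Plaur, Id2, Wls, Vegfa and Csnk2b fell by 1.62 ± 0.26, 1.26 ± 0.23, 0.63 ± 0.17, 0.48 ± 0.13 and 0.44 ± 0.08. The remaining gene, Lgr4, is the R-spondin receptor whose ligand withdraws Znrf3 and Rnf43 from Frizzled: it was higher in ITD by 0.90 ± 0.22 (adjusted p 0.0187), with group means of 8.13 in ITD, 8.36 in parental, 7.59 in vector and 7.24 in wild-type cells, and 7.15 with ligand. With wild-type FLT3, with or without ligand, 30 of the 154 were called against parental and vector cells (19.5%, beside 21.6%), and Lgr4 differed there by -0.78 ± 0.20 (adjusted p 0.00847). The mean of Klf1 and Gata1 was in the same order over the groups except that it was lower without ligand than with it, and its part in the difference of Lgr4 was not tested.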

How the data were processed

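The arrays were of the type Affymetrix Mouse Exon 1.0 ST. The authors deposited log2 signals per probe set; per the submitters' processing notes, they ran RMA within Expression Console 1.1 of Affymetrix. RMA corrects background, normalises between arrays and summarises probes. The build and probe filter are not given in the sources used here. Of 1256831 probe sets 325444 had a symbol in the platform annotation; 6684 had several and were left out, and 931387 were unnamed here. Of 22296 symbols 18005 were current in RefSeq, 4228 were updated and 63 kept. The annotation's Tcf3 was read as Tcf7l1, because the annotation lists today's Tcf3 apart. Probe sets entered when their 17-array mean exceeded 4.599, the median of all such means (237584 passed), and a gene value is the mean of its used probe sets. Array medians lay between 4.63 and 4.69, and precision is limited by how few arrays a group has.

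limma 3.58.1 in R 4.3.3 (lmFit, eBayes with a trend) fitted 5 group means to 20228 genes with 12 residual degrees of freedom, of which the ITD lines give 8. Tests were two-sided, and p-values were adjusted over all genes by Benjamini-Hochberg, also for the one-sided F ratio of ITD (8 degrees of freedom) to control pair variance (4). There were 8 planned contrasts, and 2 were added after the values were seen. Per-array values are given for members called in a planned contrast, and group means for these and the highest of each role; other pathway genes are named, up to 6 a list, where called in the contrast discussed, which was done for ITD against the 3 control groups and against wild-type FLT3 and not for the other contrasts. Tcf7 and Ctnnb1 were singled out after their values were seen. The members and lists were chosen with earlier results of these data known. The fit was tested on simulated data. Replicate numbers did not pair the control samples (correlations of deviations from -0.118 to 0.092). Promoters come from RefSeq, build GRCm38.p6.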

Additional observations from a re-analysis of the deposited data

How the results depend on the processing

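Znrf3 kept its call in ITD against the 3 control groups under all 12 other settings and without each of 17 arrays (0.41 to 0.76, highest adjusted p 0.0207). Of 644 settings over 26 gene results, 550 kept direction and call, 93 lost the call and 1 reversed: Fzd1 in ITD against parental cells was -0.014 with no filter on dim probe sets. The causes were not tested. Leaving Tcf7l1 out removes that member without a new fit, so every other member repeats its main result there by construction. These repeats are among the 550 kept and the 12 settings of Znrf3.

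Members called in ITD against the 3 control groups (4) were 7 with a stricter filter, 2 with the median of probe sets, 2 without the vector group, 1 with 12 lines as units, and 3 to 7 without 1 array. Against parental cells (3) they were 1 to 4 without 1 array; against the vector (4), 1 with the median and 1 to 4 without 1 array. Against wild-type FLT3 (1) they were 2 with a stricter filter, 2 after quantile normalization and 0 to 2 without 1 array; against wild-type FLT3 with ligand (2), 1 with the median, 1 with Tcf7l1 left out and 0 to 2 without 1 array. Wild-type FLT3 against vector (1) gave 0 with the median, 2 after quantile normalization, 5 with only the groups compared and 0 to 2 without 1 array. Vector against parental cells (1) gave 0 with no filter, with the median, with no trend and with the replicate block, 2 with only the groups compared and 0 to 1 without 1 array. In the added contrast of ITD with both wild-type groups (4) there were 2 with the median and 2 to 6 without 1 array. Except where counts over all genes are given below, the share of all genes called in the same setting is not stated. A moved count is therefore not read as particular to the members. Near-background members were 8, and 17 with the level limit at 2 above the median.

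The replicate block left the counts of the first 7 planned contrasts at 4, 3, 4, 1, 2, 0 and 1, and the added contrasts had 5 and 4; the samples share only a number. Over all genes, ITD against the controls fell from 3917 calls to 466 with 12 lines as units, 2477 without the parental group and 2221 without the vector group. With only the groups compared, ITD against wild-type FLT3 went from 1559 to 843, wild-type FLT3 against vector from 1661 to 4883 and vector against parental cells from 451 to 2021. After quantile normalization the last was 681. Genes called for variation among ITD lines were 516, and 317 with no filter, 814 with a stricter one, 50 with the median and 873 after quantile normalization. Where 1 array was left out of a pair, the lone array was assumed to vary like the other groups.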
